A study of Homo sapiens with 6 samples.

Results

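The 10 genes described here encode enzymes of pyrimidine salvage and breakdown, and they were taken by symbol from a table of 15651 genes, in which all 10 were found. They are the salvage kinases UCK1, UCK2, TK1 and TK2, the nucleotidases NT5E, NT5C, NT5C2 and NT5C3A, and UPP1 and DPYD, which act in pyrimidine breakdown. RNA was sequenced from MDA-MB-231, an established human line of triple-negative breast cancer, which lacks the estrogen and progesterone receptors and HER2 amplification. Cells had received either DMSO, the solvent (3 libraries), or BRL-50481, an inhibitor of the cyclic AMP phosphodiesterase PDE7A (3 libraries), with no genetic change in either group. The treatment text of the labels and the study's methods give a BRL-50481 dose of 50 μM and a time of 72 h, whereas the treatment tag of the same samples gives 5 μM and 48 h, and the record does not settle which is right. The comparison asks how mRNA of these enzymes differed between inhibitor-treated and solvent-treated cells of 1 line, and whether the kinases differed from the nucleotidases and breakdown enzymes.

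Pyrimidine nucleotides are made de novo from small precursors or are recovered by salvage. In salvage, nucleosides enter through transporters of the cell membrane and are phosphorylated by kinases, which traps them inside the cell as nucleotides. Nucleotidases take the phosphate off again, phosphorylases split nucleosides into base and sugar phosphate, and dihydropyrimidine dehydrogenase opens the route by which free uracil and thymine are degraded. The kinases and nucleotidases thus run in opposite directions, and several exist as paralogues with separate compartments or substrates.

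Values are normalized counts, that is, reads per gene after division by the size factor of their library. Reads recovered for the genes of the table numbered 30750573 to 33446984 per library, which leaves out reads not assigned to these genes. A gene was called at an adjusted p-value under 0.05 (limma on log2 of the normalized count plus 1, Benjamini-Hochberg adjustment over the 15246 genes tested), and all log2 fold changes below are BRL-50481 minus DMSO on that scale. The comparison was broad: 58.7% of the genes tested were called, 28.9% higher and 29.8% lower, and in 64.2% the ranges of the groups did not overlap. The line's markers were in place, with VIM at 56075 to 88612, CD44 at 30982 to 43852, CAV1 at 7830 to 11460 and AXL at 44673 to 49831 normalized counts. PGR was at 0 to 7.75, CDH1 at 31.7 to 105 and ERBB2 at 1606 to 1979. PECAM1, an endothelial marker, was at 325 to 537 and was higher in BRL-50481, as were VIM, CD44, CAV1, AXL, CDH1 and ERBB2; ESR1 and PTPRC were not analysed here, and the part of these shifts in the results below was not tested. The DMSO libraries were the more variable group, with a residual SD of log2 values of 0.141 in DMSO replicate 1 against 0.0791 to 0.119 in the other 5.

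Of the 10 enzymes, 4 were higher in BRL-50481-treated cells (DPYD, TK2, NT5C and NT5E), 4 were lower (UCK2, NT5C3A, UPP1 and TK1) and 2 did not pass the threshold (NT5C2 and UCK1). The 8 of 10 called stand beside 58.7% of all genes tested. Each role held members that moved in either direction. Among the 4 kinases 1 was higher and 2 were lower, and their median log2 fold change was -0.19. Among the 4 nucleotidases 2 were higher and 1 was lower (median 0.27), and the breakdown pair split into 1 higher and 1 lower (median 0.14). Over all 10 the median was 0.03, beside 0.01 for the genes tested, and the median absolute change was 0.47 beside 0.33. No member passed an absolute log2 fold change of 1, which 8.04% of the genes tested passed while being called. The ranges of the groups did not overlap for 9 of the 10, beside 64.2% of all genes tested. Several of these genes are among the pyrimidine genes that the study itself drew from these samples, so their directions are not independent evidence. In bulk RNA of this kind, less RNA per cell and fewer cells that express a gene cannot be told apart.

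**Figure D1:**
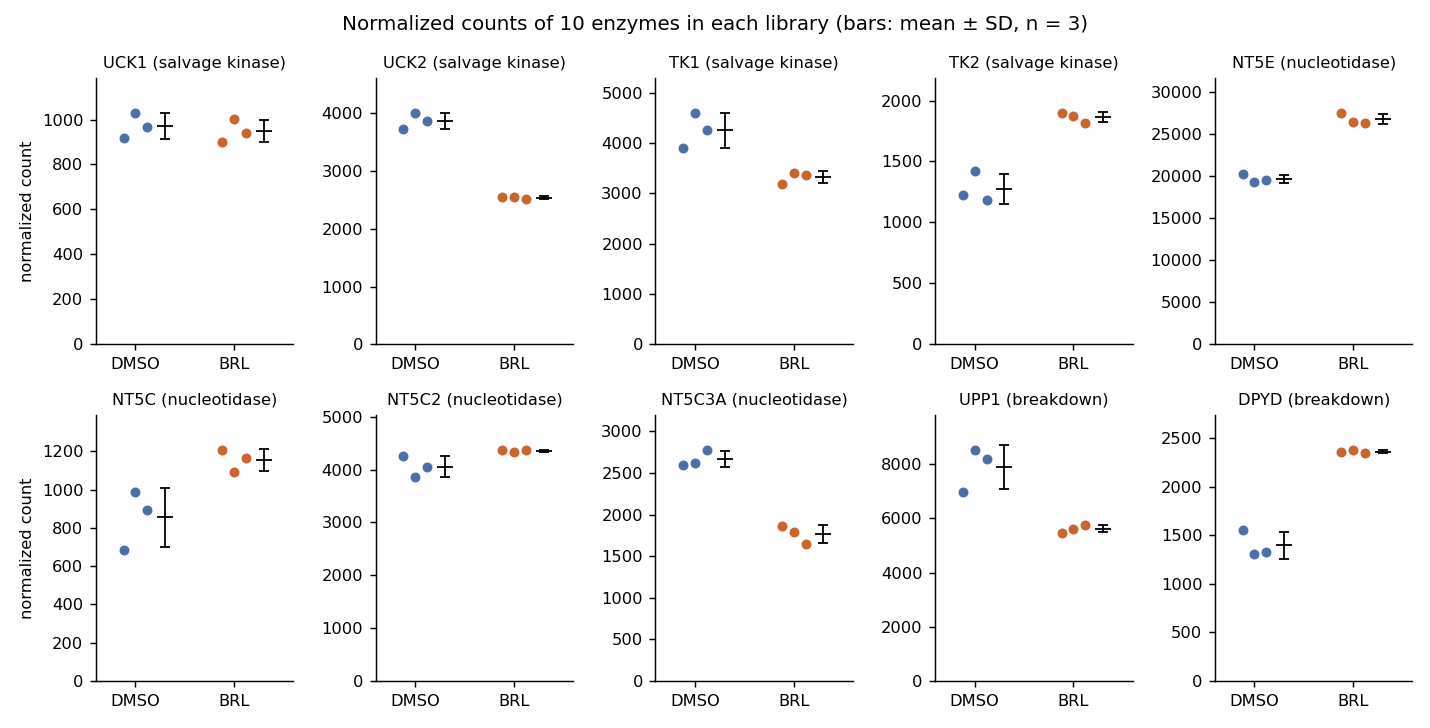
Normalized counts (y axis, from 0) of the 10 enzymes in each of the 3 DMSO libraries (blue) and 3 BRL-50481 libraries (orange), with black marks for mean ± SD. The points of the groups are apart for every enzyme except UCK1, though for NT5C2 the gap is small.

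UCK1 and UCK2 are the uridine-cytidine kinases, which phosphorylate uridine and cytidine to UMP and CMP in the first step of ribonucleoside salvage. UCK2 is the more active enzyme and the one that is usually raised in tumours. UCK2 (chr1:165827614-165911618, plus strand, hg38) had 3733, 4006 and 3871 normalized counts in the DMSO libraries and 2548, 2556 and 2513 in the BRL-50481 libraries. Every treated library lay far below every control library, and the treated values were nearly equal, with a coefficient of variation of 0.899%. UCK2 fell by 0.61 in log2 units (standard error, SE, 0.05, limma adjusted p = 4.31e-07), to 0.656 times the control level. UCK1 (chr9:131523801-131531264, minus strand) had 916, 1029 and 968 normalized counts in DMSO and 902, 1001 and 942 in BRL-50481. Its groups overlapped, and its log2 fold change of -0.03 (SE 0.0701, limma adjusted p = 0.702) was smaller than its error and turned to 0.0083 under quantile normalization and to 0.019 after correction for length and GC content. The annotation places an exon of the microRNA gene MIR3658 on the same strand within exons of UCK2, so that reads there cannot be assigned to 1 gene.

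The 250 bases upstream of the RefSeq start sites of this pair (GRCh38.p14) are shown because UCK2 was called lower while its paralogue UCK1 was not called. In lower case, with capitals for matches to the motifs searched on both strands, these were the window of UCK1 (chr9:131531264-131531513, minus strand) and that of UCK2 (chr1:165827364-165827613, plus strand), each read 5′ to 3′ along its gene.
UCK1: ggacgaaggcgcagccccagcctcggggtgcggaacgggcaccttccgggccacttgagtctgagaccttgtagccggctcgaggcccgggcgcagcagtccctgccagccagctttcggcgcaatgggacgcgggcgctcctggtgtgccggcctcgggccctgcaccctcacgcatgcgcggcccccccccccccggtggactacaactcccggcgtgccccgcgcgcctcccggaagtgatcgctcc
UCK2: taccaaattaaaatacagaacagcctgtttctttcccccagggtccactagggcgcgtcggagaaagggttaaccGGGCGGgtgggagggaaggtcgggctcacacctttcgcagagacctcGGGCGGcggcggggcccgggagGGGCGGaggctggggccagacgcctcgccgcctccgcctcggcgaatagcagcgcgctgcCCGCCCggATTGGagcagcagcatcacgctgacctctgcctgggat
The UCK1 window held none of the motifs searched. The UCK2 window held 4 GC boxes (GGGCGG, or CCGCCC on the other strand) and 1 CCAAT box (ATTGG on the printed strand). These letters are common: of 35116 RefSeq promoter windows of this length, 42.6% hold a GC box and 32.0% a CCAAT box.

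TK1 and TK2 are the thymidine kinases. TK1 is cytosolic and rises with S phase in dividing cells, whereas TK2 is mitochondrial, is not tied to the cell cycle and supplies precursors for mitochondrial DNA. TK1 (chr17:78174091-78187233, minus strand) had 3909, 4594 and 4250 normalized counts in DMSO and 3183, 3411 and 3370 in BRL-50481. It fell by 0.35 on the log2 scale (SE 0.0615, limma adjusted p = 0.000272), and the highest treated library stayed under the lowest control. TK2 (chr16:66508003-66552544, minus strand) moved the other way, from 1222, 1418 and 1186 to 1897, 1875 and 1819 normalized counts. All 3 treated libraries were above all 3 controls, with a log2 fold change of 0.55 (SE 0.0702, limma adjusted p = 1.95e-05), or 1.46 times the control level. Exons of TK2 overlap those of an unnamed protein-coding gene on the same strand in GENCODE, and reads there cannot be assigned to TK2 alone.

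NT5E, also known as CD73, is anchored on the outer face of the cell and releases nucleosides from extracellular nucleotides. It is best known for making adenosine from AMP, so its role reaches beyond pyrimidines. NT5E (chr6:85449584-85495791, plus strand) was the most abundant member, at 20245, 19287 and 19616 normalized counts in DMSO and 27535, 26476 and 26413 in BRL-50481. The treated libraries were all higher, by 0.44 on the log2 scale (SE 0.0433, limma adjusted p = 1.9e-06).

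The other nucleotidases are intracellular. NT5C is a cytosolic deoxynucleotidase that prefers deoxyribonucleoside monophosphates, NT5C3A acts on UMP and CMP and is the pyrimidine nucleotidase of red cells, and NT5C2 prefers the purine nucleotides IMP and GMP. NT5C (chr17:75130225-75131757, minus strand) had 684, 986 and 894 normalized counts in DMSO and 1208, 1094 and 1167 in BRL-50481. DMSO replicate 1 stood well below the other controls, and the coefficient of variation in DMSO was 18.2%, the highest of the 10. NT5C rose by 0.45 on the log2 scale (SE 0.109, limma adjusted p = 0.00297), and by 0.30 without DMSO replicate 1. NT5C3A (chr7:33014130-33062796, minus strand) went from 2603, 2620 and 2779 to 1868, 1786 and 1651 normalized counts. Its groups were far apart, and it fell by 0.59 on the log2 scale (SE 0.0602, limma adjusted p = 2.62e-06), to 0.662 times the control level. GENCODE lists 2 pseudogenes each for NT5C and NT5C3A, which were not analysed here. The study gives default counting settings apart from strand, and what these did to reads shared with the pseudogenes was not examined.

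NT5C2 (chr10:103087185-103277605, minus strand) had 4262, 3862 and 4054 normalized counts in DMSO and 4364, 4329 and 4376 in BRL-50481. The treated libraries lay just above the highest control, yet the difference of 0.10 on the log2 scale (standard error 0.0507) did not pass the threshold (adjusted p = 0.0971 in limma). It passed under quantile normalization (0.15, adjusted p = 0.02), under median centring (0.13, adjusted p = 0.0384) and without DMSO replicate 1 (0.14, adjusted p = 0.00375).

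The windows upstream of NT5C (chr17:75131743-75131992, minus strand) and NT5C3A (chr7:33062777-33063026, minus strand; 1 of its 2 RefSeq windows) are shown as those of nucleotidases that changed in opposite directions. Capitals again mark motif matches.
NT5C: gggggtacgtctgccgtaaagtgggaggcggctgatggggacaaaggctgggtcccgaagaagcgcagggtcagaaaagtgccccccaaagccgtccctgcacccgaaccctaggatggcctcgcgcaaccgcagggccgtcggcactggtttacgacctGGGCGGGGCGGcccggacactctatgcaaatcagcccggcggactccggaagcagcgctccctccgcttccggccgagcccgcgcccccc
NT5C3A: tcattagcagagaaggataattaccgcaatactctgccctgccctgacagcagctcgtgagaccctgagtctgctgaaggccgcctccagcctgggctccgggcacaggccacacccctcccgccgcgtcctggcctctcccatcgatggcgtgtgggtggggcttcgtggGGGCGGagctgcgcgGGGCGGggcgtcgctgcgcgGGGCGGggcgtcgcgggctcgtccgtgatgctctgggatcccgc
Both held GC boxes, 2 that overlap by a letter in NT5C and 3 in NT5C3A. Of 17 windows of the 10 members, 12 held a GC box, beside 42.6% of all windows. Some windows of the same gene overlap (in TK1, UPP1 and DPYD), so some GC boxes were counted in more than 1 window. By gene, 8 members held a GC box, UCK1 and TK2 being those without, and the share by gene over all genes was not computed. CCAAT boxes were found in 2 of the 17 windows (UCK2 and TK1), beside 32.0% of all windows. The shortened CRE motif TGACG was found in 2 of the 17 (NT5E and NT5C3A), beside 21.2% of all windows. No member window held the full cyclic AMP response element TGACGTCA, found in 1.65% of all windows, or an E2F site (TTTCCCGC, TTTCGCGC, TTTGCCGC or TTTGGCGC), found in 2.79%. These counts describe letters in short windows and not binding.

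UPP1 and DPYD act on the way to degradation. Uridine phosphorylase, the product of UPP1, reversibly splits uridine into uracil and ribose phosphate. Dihydropyrimidine dehydrogenase, the product of DPYD, reduces uracil and thymine in the first and rate-limiting step of their breakdown, and is also the enzyme that inactivates the drug fluorouracil. UPP1 (chr7:48088628-48108736, plus strand) had 6991, 8533 and 8191 normalized counts in DMSO and 5479, 5623 and 5754 in BRL-50481. Each treated library was below each control, and UPP1 fell by 0.49 on the log2 scale (SE 0.0659, limma adjusted p = 3.26e-05). DPYD (chr1:97077743-97995000, minus strand), which spans 917 kb, rose from 1557, 1309 and 1322 to 2353, 2378 and 2350 normalized counts. The treated libraries agreed within a coefficient of variation of 0.665%, and the log2 fold change of 0.76 (SE 0.0687, limma adjusted p = 9.48e-07), or 1.7 times the control level, was the largest among the 10 in size. MIR137HG shares 494 exon bases with DPYD on the same strand.

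To compare levels between genes, normalized counts were divided by the length of the canonical transcript in kilobases. On this scale NT5E was highest in DMSO (5535 ± 137 per kilobase, SD, n = 3), followed by UPP1 (4751 ± 487) and TK1 (2971 ± 239), and these kept the first places in BRL-50481. NT5C3A came next in DMSO at 1600 ± 58.4 (SD, n = 3) per kilobase, then NT5C2 at 1152 ± 56.8, NT5C at 949 ± 172 and UCK2 at 806 ± 28.5. UCK1 (449 ± 26.1), DPYD (316 ± 31.6) and TK2 (264 ± 25.9) were lowest. Among neighbours in this order only the ranges of NT5C and UCK2 overlapped in DMSO, although the highest TK2 library (294 per kilobase) came within 2 of the lowest DPYD library (296), and the highest NT5C library and the lowest NT5C2 library were both at 1095. In BRL-50481 NT5C (1283 ± 64.2 per kilobase, SD, n = 3) and NT5C2 (1236 ± 6.93) stood before NT5C3A (1061 ± 65.9), and DPYD (534 ± 3.55) drew level with UCK2 (529 ± 4.76). The ranges of NT5C and NT5C2, and of DPYD and UCK2, overlapped there. The reads were counted on another annotation than GENCODE, and with the length of all annotated exons in place of the canonical transcript TK1 came before UPP1 in DMSO, and NT5C2 fell behind NT5C and UCK2.

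**Figure D2:**
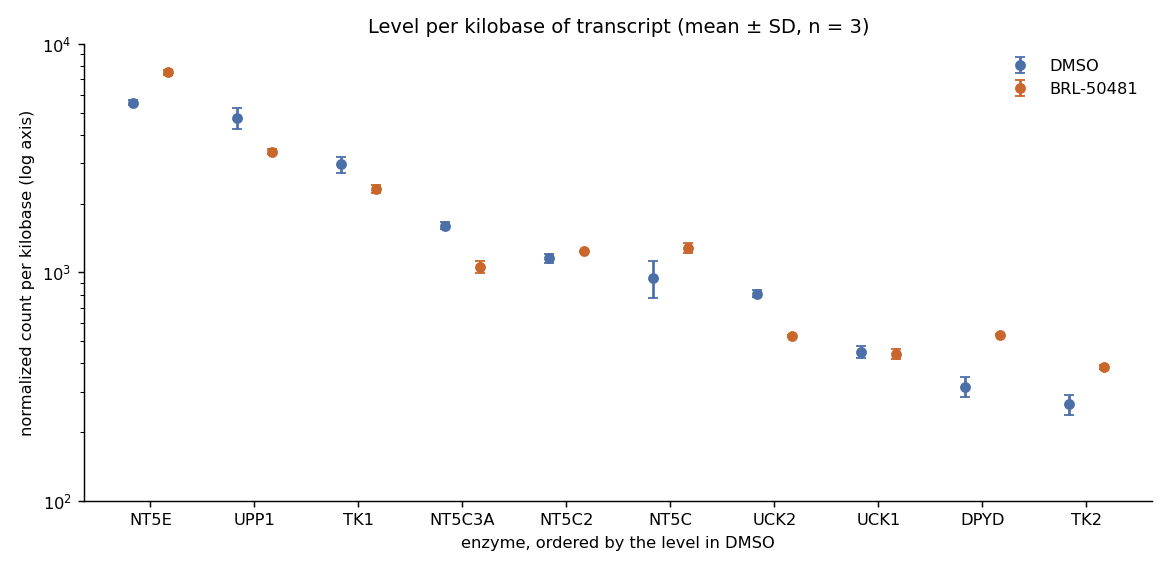
Normalized count per kilobase of canonical transcript (y axis, log scale) for each enzyme, ordered from left to right by its level in DMSO, with DMSO in blue, BRL-50481 in orange and bars for SD (n = 3). NT5E rises further above UPP1 in BRL-50481, and UCK2 and DPYD come to overlapping levels.

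Summed per kilobase, the 4 kinases were at 4186, 4815 and 4470 in the DMSO libraries and at 3566, 3768 and 3692 in the BRL-50481 libraries, a ratio of means of 0.818. TK1 makes up most of this sum. The nucleotidase sum went from 9213, 9177 and 9316 (DMSO) to 11430.0, 10946 and 10942 (BRL-50481), a ratio of 1.2, but NT5E supplied 59.9% of it in DMSO and 67.8% in BRL-50481. Without NT5E the sums of the remaining nucleotidases overlapped between the groups (3529, 3762 and 3809 against 3700, 3514 and 3527). The breakdown sum, led by UPP1, was 5066 ± 456 (SD, n = 3) in DMSO and 3910 ± 82.5 (SD, n = 3) in BRL-50481. The kinase sums, the full nucleotidase sums and the breakdown sums did not overlap between the groups, while the members within each class were divided. Of the single genes tested, 64.2% did not overlap either. These sums add mRNA levels of enzymes with different activities, and no test was made of them.

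Ratios within a library do not depend on the size factors. The ratio of UCK2 to UCK1 was 2.03, 1.96 and 2.00 on the log2 scale in the DMSO libraries and 1.5, 1.35 and 1.41 in the BRL-50481 libraries. That of TK1, the cytosolic kinase, to mitochondrial TK2 went from 1.68, 1.69 and 1.84 to 0.75, 0.86 and 0.89. Per kilobase, TK1 mRNA was 11.3 ± 0.715 times (SD, n = 3) that of TK2 in DMSO and 6.01 ± 0.312 times (SD, n = 3) in BRL-50481. These levels rest on the length used, and with all annotated exons the means were 18.7 and 9.99 times. For NT5C3A over NT5C the log2 ratio was 1.93, 1.41 and 1.64 in DMSO and 0.63, 0.71 and 0.50 in BRL-50481. Per kilobase NT5C3A exceeded NT5C in the controls (1.72 ± 0.313 times, SD, n = 3) and was below it in treated cells (0.828 ± 0.0594 times), as it was with all annotated exons (1.52 and 0.729 times). UPP1 over DPYD shifted furthest, from 2.17, 2.7 and 2.63 to 1.22, 1.24 and 1.29 on the log2 scale, a difference of -1.25. In all 4 ratios the groups stayed apart. The pairs were chosen with the direction of their members known, so no test was made of them.

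**Figure D3:**
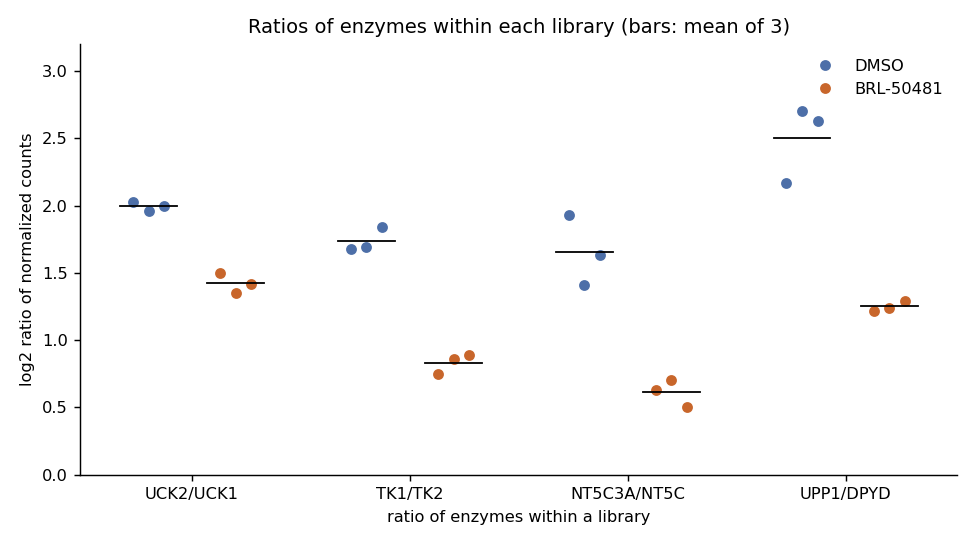
Log2 ratio of the normalized counts of 2 enzymes (y axis) within each DMSO library (blue) and each BRL-50481 library (orange), with black bars for the mean of 3. All BRL-50481 points lie below all DMSO points of the same ratio, and the shift is largest for UPP1 over DPYD.

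The enzymes were also read in their pathway. Of 27 further genes listed, 19 had a row in the table and all 19 were tested, with 10 lower, 4 higher and 5 not called, beside 29.8% and 28.9% of all genes tested. Their median log2 fold change was -0.13. CMPK2, NT5C1A, NT5C1B, UPP2, DPYS, AGXT2, SLC28A1 and SLC28A2 were not analysed here.

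The equilibrative nucleoside transporters, which let nucleosides cross membranes down their gradient, were all lower in BRL-50481. SLC29A1 (ENT1), the main route of uridine uptake in many cells, had 8009, 8427 and 8136 normalized counts in DMSO and 6114, 6354 and 6234 in BRL-50481, a log2 fold change of -0.39 (SE 0.0453, limma adjusted p = 7.88e-06). SLC29A2 (ENT2) went from 1121, 1202 and 1185 to 930.2, 905.5 and 864 (-0.38, adjusted p = 0.000213). SLC29A3, the transporter of lysosomes and mitochondria, went from 219, 221 and 165 to 104, 118 and 98.9 (-0.90, adjusted p = 0.000118). SLC29A4, which also carries monoamines, went from 83.3, 124 and 119.5 to 59.4, 58.4 and 49.4 (-0.94, adjusted p = 0.000683). All 4 were called lower with no overlap, and each kept its call under the 17 alternatives. Of all genes tested, 29.8% were called lower, and in 64.2% the groups did not overlap. SLC29A4 has 2 pseudogenes in GENCODE. SLC28A3, a concentrative transporter that draws nucleosides in with sodium, was higher at low counts of 21.6 to 54.4 (0.68, SE 0.256, limma adjusted p = 0.0363). Its groups overlapped, and its call was lost under 8 of the 17 alternatives.

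Among the further kinases and deaminases, DCTD, the dCMP deaminase that leads toward dUMP, rose from 2815, 2767 and 2781 to 3931, 4006 and 3663 normalized counts (0.47, SE 0.0517, limma adjusted p = 5.24e-06). CDA, the cytidine deaminase, was higher as well (1349, 1410 and 1314 against 1569, 1679 and 1685; 0.28, adjusted p = 0.00136). Both enzymes remove the amino group of cytosine compounds. UCKL1, a relative of UCK1 and UCK2, was lower by a log2 fold change of -0.22 (adjusted p = 0.00624 in limma). DCK, which phosphorylates deoxycytidine, was lower by a similar amount (-0.22, adjusted p = 0.0132), and CMPK1, the UMP-CMP kinase, was at -0.13 (adjusted p = 0.0289). The thymidylate kinase DTYMK (0.02, adjusted p = 0.868) and UPRT (-0.0022, adjusted p = 0.984), a relative of uracil phosphoribosyltransferases, were not called. The sign of UPRT turned under 6 of the 17 alternatives, and that of DTYMK under 1, without DMSO replicate 1.

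Among the enzymes that hydrolyse nucleotides, DCTPP1, which clears dCTP and its modified forms, changed most. It had 805, 986 and 916 normalized counts in DMSO and 403, 319 and 363 in BRL-50481, a fall to 0.401 times the control level (-1.32, SE 0.1, limma adjusted p = 2.15e-07). NT5C3B, the paralogue of NT5C3A, was lower by less (-0.21, adjusted p = 0.024), with overlapping groups. SAMHD1, a dNTP triphosphohydrolase, was at -0.16 (adjusted p = 0.0478), and DUT, which hydrolyses dUTP, was not called (-0.12, adjusted p = 0.166). DUT has 8 pseudogenes in GENCODE. TYMP, the thymidine phosphorylase and the counterpart of UPP1 for deoxynucleosides, rose from 390, 476 and 434 to 554, 565 and 576 (0.39, SE 0.0868, limma adjusted p = 0.00188), so the phosphorylases moved in opposite directions. NT5M and UPB1, which had mean normalized counts under 100, were not called. Of the 14 further genes called, 9 kept their call under all 17 alternatives; CMPK1, DCK, NT5C3B, SAMHD1 and SLC28A3 did not.

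**Figure D4:**
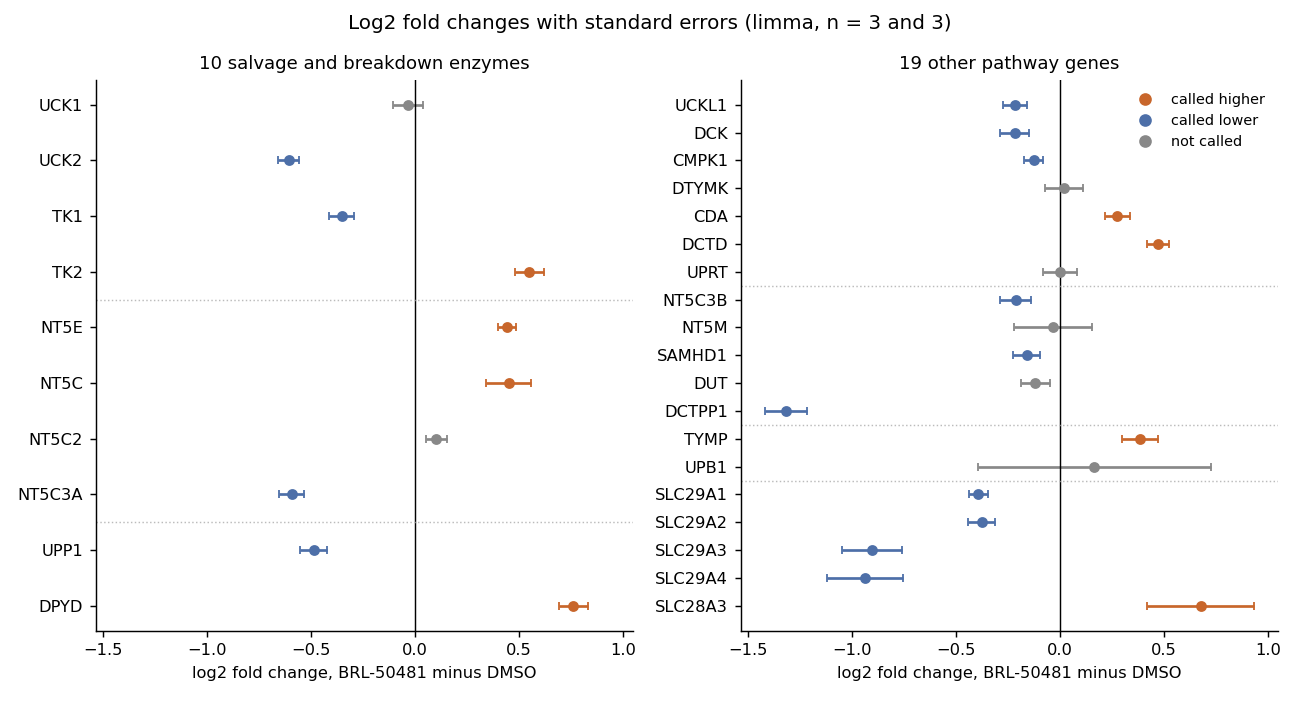
Log2 fold change of BRL-50481 minus DMSO (x axis) with its standard error from limma for the 10 enzymes (left) and 19 other pathway genes (right), orange for called higher, blue for called lower and grey for not called, with dotted lines between roles. The 4 equilibrative transporters (SLC29A1 to SLC29A4) lie left of 0, whereas in the left panel the kinases, nucleotidases and breakdown enzymes each lie on both sides; the grey points of UCK1, DTYMK, UPRT, NT5M and UPB1 changed sign under 1 to 6 alternatives each, and those of NT5C2 and DUT under none.

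The spread between replicates also differed by group. For 9 of the 10 members the coefficient of variation was larger in DMSO than in BRL-50481, NT5C3A being the exception (3.65% against 6.22%), beside 68.1% of all genes tested. DMSO replicate 1 was the control nearest to the BRL-50481 mean for 7 of the members and for 44.9% of the genes tested. Leaving it out moved UPP1 from -0.49 to -0.57 and DPYD from 0.76 to 0.84 on the log2 scale. The members were read deeply, with 689 to 27352 reads per library. Counting error, taken at the mean count over both groups, was 0.654% to 3.22%, below the spread between DMSO libraries for each member. In BRL-50481 the coefficient of variation was below that counting error for 4 members. It was 0.899% against 1.76% for UCK2, 0.561% against 1.54% for NT5C2, 0.665% against 2.3% for DPYD and 2.14% against 2.52% for TK2. The share of all genes for which this held was not computed.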

How the data were processed

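RNA-seq was performed on 3 DMSO-treated and 3 BRL-50481-treated samples of MDA-MB-231 cells, which the series record calls biological replicates. Samples were grouped by the treatment in their labels, with all deposited per-sample columns in use. The labels describe oligo-dT selection and strand-specific libraries, whereas ribosomal RNA depletion is given in the series record.

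According to the methods and the processing notes, the authors aligned reads to hg38 with STAR 2.7.1a, counted them with htseq-count by strand on a UCSC annotation, and used DESeq2 1.28. The deposited signal per gene and library is the read count divided by the DESeq2 size factor, that is, a normalized count. The deposited columns of the authors' own comparison hold a mean signal, a log2 fold change with its standard error, a score (the test statistic), and p-values before and after adjustment, and none was used.

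Genes that reached 4 normalized counts in 3 or more libraries were tested. The test was limma 3.58.1 in R 4.3.3 (lmFit, then eBayes with its trend option), applied to log2 of the normalized count plus 1. The groups were the only term. Dividing by what 1 read is worth gave whole numbers (within 0.01 reads) for 100% of the values in each library, so reads were recovered for edgeR 4.0.16 (quasi-likelihood with TMM), which called 4358 genes higher and 4574 lower, and for DESeq2 1.42.0, which called 4097 and 4356. Other alternatives were limma without its trend, median centring, quantile normalization, a replicate block, pseudocounts of 0.5 or 4, dropping the filter, a mean of 20 or more normalized counts as the filter, a loess correction for length and GC content, and each library left out. Lengths and positions came from GENCODE 44 (95.7% of genes matched by current or older symbol), and promoter windows from RefSeq (GRCh38.p14), where all 10 members matched.

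The genes described with values are the 10 members and, of the further pathway lists, those that passed the test or had a mean normalized count of at least 100. NT5M, UPB1 and the 8 listed genes not analysed are named only to account for the lists. The members, ratios and lists were chosen with earlier results of these data known. Counts were simulated from the gene means and size factors of these libraries. The dispersion was set by hand, equal in both groups, and 200 genes were changed. In these counts limma found 100% of log2 changes of 1 and 81% of changes of 0.5, and called 13 of 15046 unchanged genes. In the real data the DMSO libraries varied more and far more genes were called, so these rates do not carry over.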

Additional observations from a re-analysis of the deposited data

How the results depend on the processing

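Under 17 alternatives, 8 of the 10 enzymes (UCK2, TK1, TK2, NT5E, NT5C, NT5C3A, UPP1 and DPYD) kept their direction and call. NT5C2 was called higher under 3 of them, which brought the members called higher from 4 to 5. For UCK1 the log2 fold change was 0.0083 under quantile normalization, 0.019 after length and GC correction, and -0.075 to 0.0090 with each library left out in turn. For UPRT it was 0.028 under median centring, 0.00085 in DESeq2 and -0.055 to 0.032 with each library left out, and for DTYMK the range was -0.097 to 0.13. Of the other pathway genes, 6 in place of 10 were called lower by limma without a trend, and 6 to 10 with each library left out, the lowest count without BRL-50481 replicate 2. The change of the log2 ratio UCK2/UCK1 went from -0.57 to -0.74 after length and GC correction, and that of TK1/TK2 from -0.90 to -0.71, which the correction's different shift of each gene produces. NT5C rose by 0.45 on the log2 scale with all libraries and by 0.30 without DMSO replicate 1. Over all genes, length and GC correction gave 4142 higher and 5502 lower, beside 4400 and 4546. Same-numbered samples deviated together with correlations of 0.121, 0.104 and 0.0514, and differently numbered samples with -0.159 to 0.0607. These values do not settle whether the numbers mark pairs, and the main fit did not take them as pairs. With the replicate number as a block, 4440 genes were higher and 4589 lower, and no call of the 10 enzymes changed. Depth did not limit the members, whose library counts were 689 reads or more, but SLC28A3 had 22 to 54 reads per library. With 3 libraries a group, small changes may be missed, and the size below which this happens was not measured for these data.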
